A study of Mus musculus with 52 samples.

Results

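The regions described here are stretches of accessible chromatin that were called as peaks in endothelial cells (ECs) of the posterior pituitary after beta-catenin stabilization, and in no other EC library of the series. ATAC-seq, in which the Tn5 transposase cuts and tags open DNA, was carried out on 12 libraries of sorted GFP+ ECs, 2 each from WT and stabilized cerebellum, anterior pituitary and posterior pituitary. A region was kept when overlapping peaks were present in both stabilized posterior pituitary libraries and no peak of the other 10 libraries touched it. A peak counted where its fold enrichment and its -log10 q each exceeded 2, and the mitochondrial genome was left out. This gave 159 regions, of 26074 held by both stabilized posterior pituitary libraries and 66740 merged regions in all 12 libraries. The peak calls themselves chose the regions, so their strength and their absence elsewhere are given as a description, without a test.

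WT mice carried Tie2-GFP alone. Stabilized mice carried Tie2-GFP; Pdgfb-CreER; BcatEx3fl, in which the endothelial Pdgfb-CreER removes exon 3 of the beta-catenin gene and leaves a protein that escapes degradation, and they had received 100 µg of 4-hydroxytamoxifen at P10. WT mice therefore differed from stabilized mice in the Cre, in the floxed allele and in 4-hydroxytamoxifen, which is stated for stabilized mice alone, and these cannot be told apart. All mice were adult males, and each pituitary replicate was a pool of 20 to 30 mice aged P30 to P90. RNA-seq of the same kinds of sorted cells had 2 libraries per group for GFP+ ECs and for GFP- cells, and 17225807 to 33342304 gene-level counts in the 12 GFP+ libraries. With 2 replicates a group, the p-values measure only the spread between these pools. One RNA library titled as stabilized anterior pituitary carries a posterior pituitary tissue tag and was grouped by its title.

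In canonical Wnt signaling, beta-catenin that is not degraded enters the nucleus and joins TCF and LEF proteins on DNA, where target genes such as Axin2 are switched on. In brain capillaries this pathway maintains the blood-brain barrier, which includes tight junctions, transporters and low permeability. The posterior pituitary is a neurosecretory lobe whose capillaries are fenestrated and lack this barrier, and resident macrophages and microglia lie close to them. A distal accessible region is often an enhancer, but its nearest gene need not be the gene it acts on.

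Sequences around the summit of 8 regions are given because they carry the points made below. Regions at the starts of Itgax and Wnt16 are promoters, those at Ptprc and Pkhd1 hold several TCF/LEF words, those at Abcg2 and Podxl lie beside genes whose RNA changed, and those at Mertk and Rptor were among the strongest. Each line gives the forward strand of GRCm38, as 100 bp on either side of the summit except for Itgax, and capitals mark matches to the words searched on either strand (AP-1 TGACTCA, TCF/LEF TTCAAAG or ATCAAAG, ETS CCGGAAG or CAGGAAG, PU.1 GAGGAAGT, NF-kB GGNNTTTCC, NFAT TGGAAAA, STAT TTCNNNGAA, KLF GGGTGTG or GGGCGTG, SOX ACAATGG or ACAATAG).
Itgax, chr7:128129401-128129546, promoter, 146 bp up to the annotated start, AP-1 in capitals, with an E-box and an NF1 word past the stretch shown: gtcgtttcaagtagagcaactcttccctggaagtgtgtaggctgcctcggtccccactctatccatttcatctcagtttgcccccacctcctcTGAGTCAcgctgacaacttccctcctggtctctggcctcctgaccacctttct
Wnt16, chr6:22288016-22288216, promoter, no word matched: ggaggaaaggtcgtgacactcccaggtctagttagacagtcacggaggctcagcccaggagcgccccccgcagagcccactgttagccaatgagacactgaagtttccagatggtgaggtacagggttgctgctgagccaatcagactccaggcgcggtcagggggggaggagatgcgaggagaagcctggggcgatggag
Ptprc, chr1:138162751-138162951, intron, TCF/LEF words before and after an NF-kB word that overlaps NFAT, 3 in all, and PU.1 at the end: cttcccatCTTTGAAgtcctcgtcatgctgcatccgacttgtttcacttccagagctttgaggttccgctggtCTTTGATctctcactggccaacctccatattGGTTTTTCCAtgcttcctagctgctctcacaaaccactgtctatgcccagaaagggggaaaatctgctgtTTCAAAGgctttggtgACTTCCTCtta
Pkhd1, chr1:20624531-20624731, intergenic, AP-1 followed by 4 TCF/LEF words: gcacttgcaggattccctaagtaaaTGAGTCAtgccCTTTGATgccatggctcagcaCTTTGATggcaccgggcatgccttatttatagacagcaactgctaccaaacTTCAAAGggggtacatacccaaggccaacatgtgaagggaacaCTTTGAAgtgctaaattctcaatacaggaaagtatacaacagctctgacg
Abcg2, chr6:58644717-58644917, intron, STAT in capitals: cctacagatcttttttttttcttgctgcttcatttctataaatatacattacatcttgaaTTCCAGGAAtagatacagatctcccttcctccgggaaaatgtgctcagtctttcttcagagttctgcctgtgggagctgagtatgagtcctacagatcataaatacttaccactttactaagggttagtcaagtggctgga
Podxl, chr6:31537252-31537452, intron, PU.1, KLF and SOX in capitals: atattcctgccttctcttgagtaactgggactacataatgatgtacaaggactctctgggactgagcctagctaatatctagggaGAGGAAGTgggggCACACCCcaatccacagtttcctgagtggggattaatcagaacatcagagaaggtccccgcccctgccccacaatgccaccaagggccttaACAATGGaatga
Mertk, chr2:128738997-128739197, intron, KLF in capitals: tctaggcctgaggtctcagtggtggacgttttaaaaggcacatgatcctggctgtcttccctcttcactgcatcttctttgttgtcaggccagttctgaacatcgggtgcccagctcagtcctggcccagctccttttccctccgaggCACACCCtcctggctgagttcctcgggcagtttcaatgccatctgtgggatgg
Rptor, chr11:119807818-119808018, intron, ETS, AP-1 and TCF/LEF in capitals: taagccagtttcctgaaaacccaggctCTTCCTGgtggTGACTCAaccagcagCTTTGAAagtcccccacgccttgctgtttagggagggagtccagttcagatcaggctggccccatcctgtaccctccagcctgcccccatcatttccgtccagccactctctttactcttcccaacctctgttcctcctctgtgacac

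The 159 regions were weak peaks. Fold enrichment over the local background ranged from 2.12 to 7.21 in replicate 1, with a median of 3.91, and from 2.12 to 6.01 in replicate 2, with a median of 3.40. Across all 26074 held regions the medians were 7.17 and 7.0. No region lay above those medians in both replicates, and the median member stood at percentile 13.3 of the held regions in replicate 1 and 9.17 in replicate 2. The -log10 q had medians of 5.56 and 6.34. Regions were also narrow, with a median width of 363 bp against 681 bp, and together they covered 60949 bp. The signal was stronger in replicate 1 at 116 regions. Pearson's r of log2 fold enrichment between the replicates was 0.43 across the 159 regions and 0.92 across all held regions. Held regions reached fold enrichments of 42.9 in replicate 1 and 40.8 in replicate 2. The narrower range of the 159 regions lowers r by itself, so these values do not compare how well the replicates match.

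**Figure D1:**
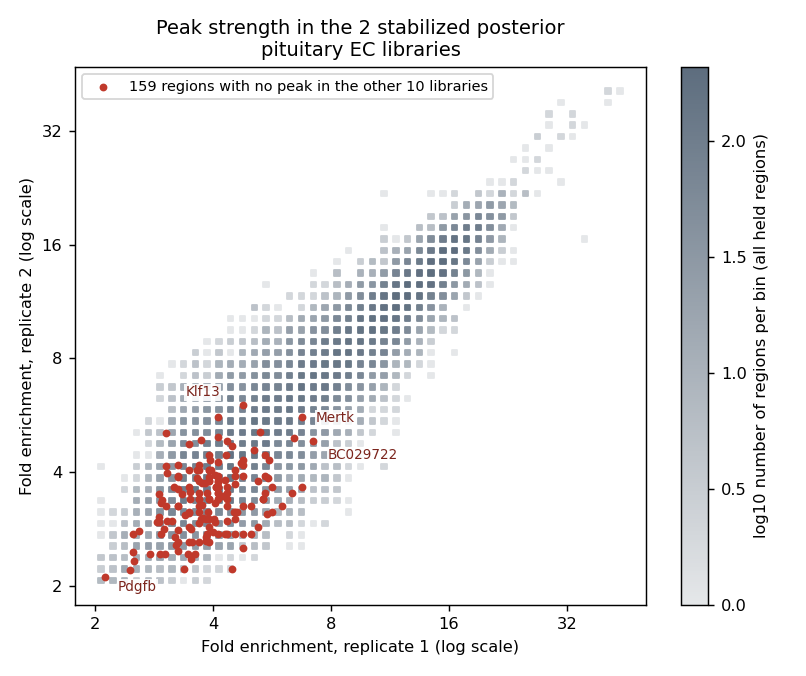
Fold enrichment of peaks in the 2 stabilized posterior pituitary EC libraries, replicate 1 on the x axis and replicate 2 on the y axis, both on log scales. Red points are the 159 regions with no peak in the other 10 libraries and grey squares are bins of all 26074 held regions, shaded by log10 of their number. The red points sit at the weak end, between 2.12 and 7.21.

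Most accessible chromatin of these ECs was shared. Of the held regions 13695 (52.5%) had a peak in all of the other 10 libraries, 185 (0.71%) in just 1 other library and 159 (0.61%) in none. Where just 1 other library had a peak, it was most often stabilized anterior pituitary, with 45 regions for replicate 1 and 46 for replicate 2. WT anterior pituitary replicate 2 followed with 28 and stabilized cerebellum replicate 1 with 21, and each WT posterior pituitary library, with fewer peaks in all, had 6. The same rule gave 528 regions for stabilized anterior pituitary, 1732 for stabilized cerebellum and 57 for WT posterior pituitary. A further 247 regions were held by both stabilized pituitary lobes and no WT or cerebellum library.

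Libraries differed in how many peaks they yielded. Kept peaks numbered 28926 and 38583 in the stabilized posterior pituitary libraries, 21050 and 20634 in WT posterior pituitary and up to 45040 in WT anterior pituitary. Without replicate 1 of the stabilized posterior pituitary the rule would have given 2673 regions, and without replicate 2 it would have given 360. Leaving out any 1 of the other 10 libraries gave 165 to 205 regions. Peaks in WT cerebellum, WT posterior pituitary and WT anterior pituitary replicate 1 carry names that begin with MSA, and those in WT anterior pituitary replicate 2 and every stabilized library begin with YW. What the prefixes stand for is not given in the sources used here, and their part in the result was not tested.

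The threshold itself drew the line at several places. At 6 regions, near Bahcc1, Itga1, Txn2, Csf2rb, Fam110a and Npvf, a peak under the filter was listed in another library. Just inside the threshold lay an intron of Pdgfb, the growth factor gene whose promoter drives the Cre, with fold enrichments of 2.12 and 2.12. Just outside lay 10 regions in which 1 of the stabilized posterior pituitary libraries missed the filter, among them one near the cytokine gene Osm with a -log10 q of 1.61 in replicate 1 and one near Id3 with 1.68. A further 19 missed it in both, with fold enrichments under 2 in each replicate. All of these lay at Sfi1 on chromosome 11 or in a short stretch of chromosome 9 (chr9:3004087-3037504). There -log10 q reached 618.2, so they are not separate borderline regions like those near Osm and Id3. Regions stood a median of 3854 bp from the nearest peak of any other library, 33 lay within 1 kb of one and 57 lay over 10 kb away.

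The regions lay mainly away from promoters. By GENCODE annotation, 77 (48.4%) had their summit in an intron, 66 (41.5%) between genes, 12 (7.55%) within 1000 bp of a protein-coding start, 2 in a UTR and 2 in a coding exon. Promoters made up 44.7% of all held regions. The median distance to the nearest start was 22594 bp against 3218 bp for all held regions, and 52 regions lay within 10 kb of a start. In this they were like the other condition-restricted sets, with promoter shares of 5.87% for stabilized anterior pituitary alone, 4.56% for stabilized cerebellum alone and 4.86% for both stabilized lobes. Median GC content within 100 bp of the summit was 53.2%, against 57.7% in all held regions. It was 48.3% in each of the stabilized anterior pituitary and stabilized cerebellum sets. Repeats covered most of the same window in 1 region (0.629%), against 37 of the 57 regions of WT posterior pituitary alone.

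**Figure D2:**
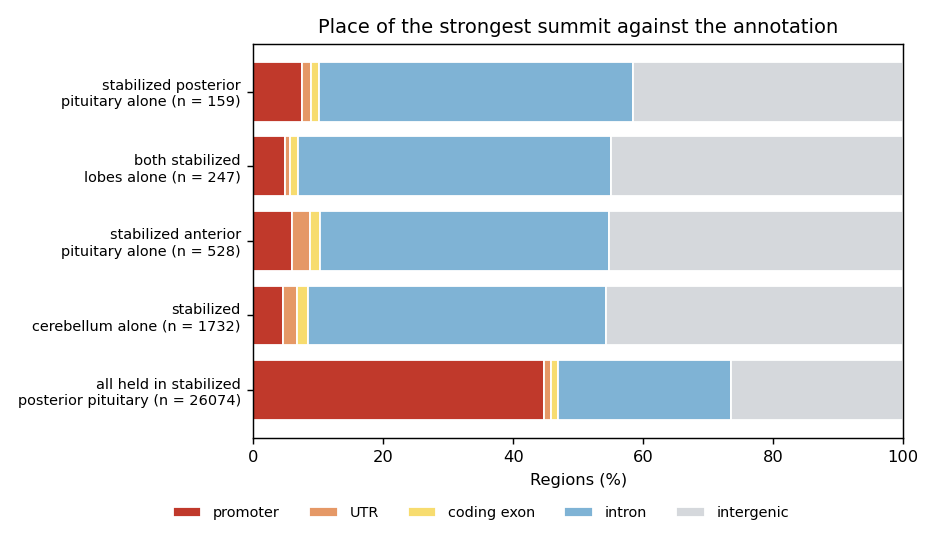
Share of regions (%) by the place of the strongest summit, for the 159 regions and for 4 other sets. Promoters are 7.55% of the 159 regions and 44.7% of all held regions, and introns are 48.4%.

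The 12 promoter regions belonged to 11 genes. They were Itgax, the CD11c integrin of dendritic cells and microglia, Wnt16, a Wnt ligand, Pgf, a VEGF family ligand, Kcna6, a voltage-gated potassium channel, Prelp, a matrix proteoglycan, Mcf2l, a guanine nucleotide exchange factor, Ube2g2, a ubiquitin-conjugating enzyme, Fhl1, a LIM protein, Gemin7, part of the SMN complex, Gm9913, and Fam110a with 2 regions. The Itgax peak had fold enrichments of 4.13 and 4.26, and the Wnt16 peak 3.91 and 4.05. The Kcna6 peak had 3.14 and 2.97, and the Pgf peak 3.17 and 3.65. These 4 promoter peaks lay on both sides of the medians of the set, and the nearest peak of another library was 57018 bp from the Itgax region and 37282 bp from the Kcna6 region.

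The strongest regions, ranked by the smaller fold enrichment of the replicates, were intronic or intergenic with a single exception. The first was in an intron of Mertk, a receptor tyrosine kinase for the uptake of dying cells (chr2:128738499-128739310, 6.73 and 5.62). An intergenic region near Gm37419 (5.28 and 5.10) and an intron of Rptor, the mTORC1 scaffold (6.45 and 4.93), followed. The next were near BC029722 within the protease gene Mmp24 (7.21 and 4.83), near the transcription factor gene Klf13 (4.78 and 6.01), upstream of the matrix gene Fbln1 (5.09 and 4.57) and in a UTR of the actin-binding protein gene Synpo2 (4.46 and 4.68). The last were near Ldlrad1 (5.43 and 4.44), 177625 bp from Pros1, which encodes a ligand of Mertk (4.34 and 4.83), and, tied at a smaller value of 4.31, 2 distant regions. One lay 255936 bp from the start of Thbs1 and the other 362450 bp from that of Prox1, the transcription factor of lymphatic ECs.

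Regions were spread over many genes. The 159 had 150 nearest genes, of which 9 were nearest to 2 regions each, namely Cblb, Csf1, Fam110a, Gm9913, Mxra7, Npvf, Pde9a, Prdm6 and Smad7. A protein-coding start lay within 100 kb for 139 regions (87.4%). The paired regions were mostly far apart, as at Csf1, the macrophage growth factor gene, where the nearer of them lay 38629 bp upstream of the start. At Fam110a and Mxra7 they were neighbours. Near Smad7, an inhibitor of TGF-beta signaling, both regions lay in introns of other genes, Dym and Ctif.

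TCF/LEF words, which the rule did not use, were found within 100 bp of the summit in 29 regions, or 18.2% (95% Wilson interval 13 to 25%). The same share was 6.91% in all held regions and 10.4% in held regions outside promoters, where the 159 regions had 19.7%. Other sets that needed stabilization had 27.5% for both stabilized lobes alone, 19.6% for stabilized cerebellum alone and 14.6% for stabilized anterior pituitary alone. The 159 regions thus lay among them. WT posterior pituitary alone had 3.51%, but that set has only 57 regions. In 37 of those, repeats covered most of the sequence within 100 bp of the summit, so this share does not set WT against stabilization. The share followed the window, at 15.1% around the summit of replicate 2 and 30.8% over whole regions, against 19.2% over whole regions for all held. A match is a description of the letters and not a bound site.

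Several words were found in 4 of the 29 regions. The intergenic region 6567 bp upstream of Pkhd1 held 4 words and the Ptprc intron 3, as the sequences above show, and those near Msx2 and 9630041A04Rik held 2. The nearest genes of the 29 regions also included Synpo2, Chst15, Oasl1, Rgcc, Prox1, Rptor and the chemokine gene Xcl1. An ETS word stood beside TCF/LEF in 6 regions and an AP-1 word in 8.

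AP-1 words were found in 28 regions, or 17.6% (12.5 to 24.3%). The share was 9.27% in all held regions, 14.2% in those outside promoters against 17.7% of the 159, and 15.4%, 9.66% and 5.54% in the sets of both lobes, stabilized anterior pituitary and stabilized cerebellum alone. ETS words, the motif of the factors common to all ECs, were found in 22.6% against 28.1% of all held regions, and in 23.1% against 30.8% outside promoters. CTCF words were found in 5.66% against 14.4%, and in 5.44% against 10.9% outside promoters. NF1 words were found in 10.7% against 5.34%, and in 10.2% against 7.43% outside promoters. Words of factors of immune cells differed among themselves. CEBP was found in 10.1% against 5.69%, and in 10.2% against 7.15% outside promoters, and RUNX in 5.03% against 2.95%, and in 4.08% against 3.96% outside promoters. PU.1 was found in 4.40% against 3.91%, NF-kB in 6.92% against 6.38% and IRF in 5.03% against 5.01%. Outside promoters these 3 were lower in the 159 regions, at 4.76% against 5.29%, 6.8% against 7.82% and 4.76% against 6.29%. Of the 20 words searched, none was found in 21 regions.

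**Figure D3:**
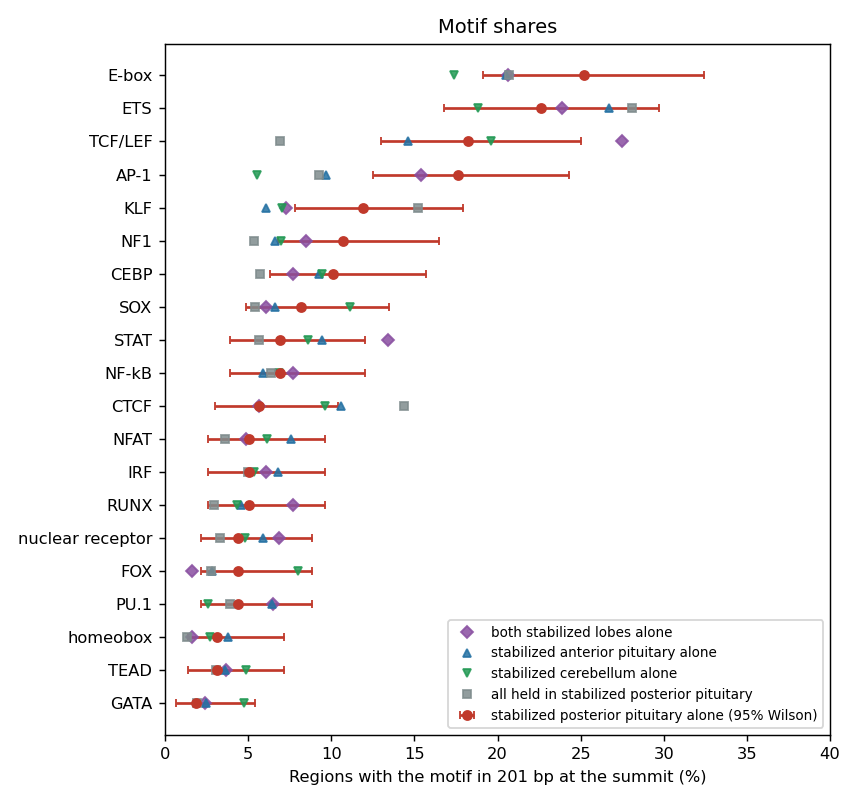
Share of regions (%) with each of 20 sequence words within 100 bp of the summit. Red points with 95% Wilson intervals, which cover counting error only, are the 159 regions, and the other symbols are the comparison sets. TCF/LEF stands at 18.2% against 6.91% in all held regions, and AP-1 at 17.6% against 9.27%.

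RNA of the factors that read these words was measured in the same kinds of cells, as CPM, the count divided by the library total after TMM scaling. Lef1 had 1.03 and 5.84 CPM in WT and 162 and 152.5 CPM in stabilized posterior pituitary ECs (adjusted p = 0.0528). Tcf7 had 0.281 and 0 against 15.0 and 23.5 CPM (adjusted p = 0.00854, edgeR's quasi-likelihood test). Both stabilized libraries were above both WT libraries for either gene, and Tcf7 passed the test. Jun, a component of AP-1, had 1851 and 829.7 CPM in WT and 196 and 162 CPM in stabilized ECs (adjusted p = 0.0901).

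RNA of the nearest genes, which the rule did not use, was compared between stabilized and WT posterior pituitary ECs to ask whether genes beside the regions changed. A call needed an adjusted p under 0.05 and a fold of at least 2. Of the 150 nearest genes 127 were expressed enough to be tested, and 17 had no count in any of the 4 libraries. Abcg2, Synpo2 and Samd5 rose (2.36% of 127 against 1.25% of 17915 genes), and Podxl, Itga1, Hic1 and Eif4g3 fell (3.15% against 0.541%). The median log2 fold change was -0.01 for the nearest genes and 0.01 for all genes. Genes beside the regions thus moved in either direction, and most were not called. The calls rested on single libraries in part. Without stabilized replicate 1 Podxl and Synpo2 were called of these 7 genes, and without stabilized replicate 2 Podxl, Synpo2 and Itga1. Without WT replicate 2 they were Podxl, Synpo2 and Abcg2. Without WT replicate 1 each of the 7 was called, but calls rose over all genes too and the median of all genes moved to 0.286. Each of these fits left 1 library in a group, which then gave no spread of its own. DESeq2 called 12 of the nearest genes higher (10.0% against 6.07% of all genes) and 12 lower (10.0% against 2.94%), as calls rose across all genes too. All 7 genes were among these 24, and the further genes included Ptprc, Csf2rb, Wnt16, Kcna6, Fbln1, Mcf2l, Klf13 and Smad7.

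Spread without a call was somewhat larger than across all genes. Both stabilized libraries lay above both WT libraries for 41 of the 127 genes (32.3% against 24.3% of all genes) and below them for 39 (30.7% against 18%). An unadjusted p under 0.05 was found for 16 higher (6.99% of all genes) and 22 lower (5.9%) genes. In a test on simulated counts of this comparison, 58% of genes changed 16-fold and 19% of genes changed 4-fold were called, so that changes of ordinary size can be missed with 2 replicates. In bulk RNA, fewer cells of a type and less RNA per cell cannot be told apart.

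**Figure D4:**
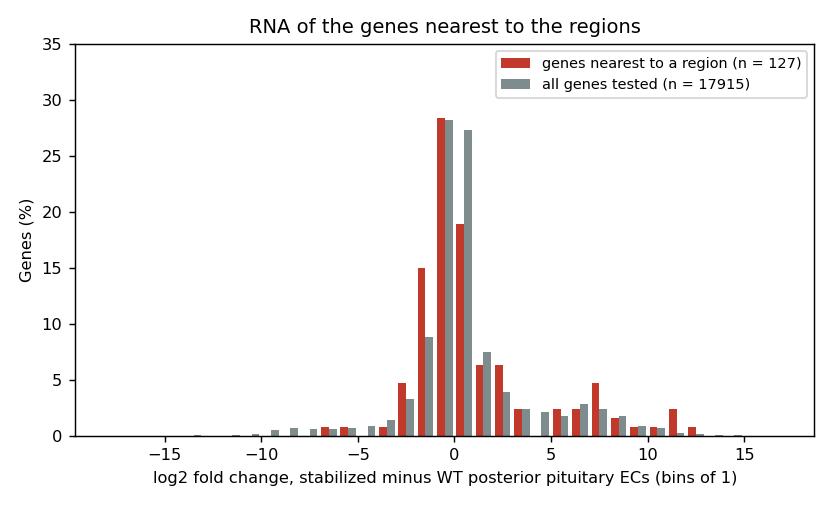
Histogram of the log2 fold change, stabilized minus WT posterior pituitary ECs, in bins of 1, for the 127 tested nearest genes (red) and all 17915 genes tested (grey), as a share of genes (%). Both are centred near 0, with medians of -0.01 and 0.01.

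Abcg2 encodes an efflux transporter of the blood-brain barrier, and its region lies in an intron 4235 bp from the start (fold enrichments 2.52 and 2.33). Its RNA was 440.1 and 535 CPM in WT and 1142 and 1063 CPM in stabilized posterior pituitary ECs. Stabilized libraries were above WT without overlap, and the log2 fold change was 1.18 ± 0.25 (SE, adjusted p = 0.037). With library totals in place of TMM scaling the log2 fold change was 0.95, under 2-fold, and Abcg2 was not called. Anterior pituitary ECs had 869.9 and 934.5 CPM in WT and 773 and 958 CPM when stabilized. WT posterior pituitary was the lowest of the 6 groups, and both stabilized posterior libraries lay above the 4 anterior ones.

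Synpo2 had 3.31 and 0 CPM in WT and 58.1 and 72.9 CPM in stabilized posterior pituitary ECs. The groups did not overlap, and the log2 fold change was 5.21 ± 0.98 (adjusted p = 0.0203). WT anterior pituitary had 53.0 and 65.3 CPM, WT cerebellum 66.5 and 34.8 CPM, and stabilized cerebellum 284 and 202 CPM. WT posterior pituitary was thus the lowest of the 6 groups.

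Samd5 had 0.312 and 0 CPM in WT and 25.8 and 22.1 CPM in stabilized posterior pituitary ECs, with a log2 fold change of 7.10 ± 1.48 (adjusted p = 0.037). Its region lies 145609 bp from the start, farther than the 100 kb within which a start was counted as near. Cerebellum ECs had 5.6 to 18.0 CPM in the 4 libraries, below both stabilized posterior pituitary libraries. GFP- cells of the posterior pituitary had 43.7 to 77.2 CPM in all 4 libraries on the scale of the 24 sorted libraries, above the ECs.

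Podxl, a sialomucin of the luminal surface of ECs, had 4645 and 4595 CPM in WT and 1194 and 1496 CPM in stabilized posterior pituitary ECs. It fell without overlap, by 1.78 ± 0.27 on the log2 scale (adjusted p = 0.00514). Its region lies in an intron 26629 bp from the start (4.78 and 2.74). Levels in the anterior pituitary and cerebellum were 1329 to 2144 CPM in all 8 libraries. WT posterior pituitary was the high group for Podxl, and stabilized posterior pituitary lay beside the rest.

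Itga1 encodes the alpha chain of a collagen-binding integrin, and its region lies 4514 bp upstream of the start. Its RNA was 537 and 953 CPM in WT and 217 and 269 CPM in stabilized posterior pituitary ECs, and fell by 1.62 ± 0.29 on the log2 scale (adjusted p = 0.0154). Stabilized cerebellum had 682 and 769.7 CPM against 523 and 529 CPM in WT, so that the order of the groups was the other way there.

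Hic1, a transcriptional repressor gene, had 54.0 and 57.1 CPM in WT and 7.70 and 9.62 CPM in stabilized posterior pituitary ECs (log2 fold change -2.68 ± 0.53, adjusted p = 0.027). Its region lies in an intron of Smg6, 36993 bp away. Eif4g3, a scaffold of translation initiation, had 163 and 195 CPM in WT and 66.4 and 74.2 CPM in stabilized ECs (log2 fold change -1.35 ± 0.27, adjusted p = 0.0282). GFP- cells showed the same order for Eif4g3, with 154 and 252.5 CPM in WT and 69.0 and 54.0 CPM in stabilized posterior pituitary, and passed the test there too.

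When every gene with its body within 100 kb of a region was taken, 479 genes, 374 of them tested, included 7 that rose (1.87% against 1.25% of all genes) and 6 that fell (1.60% against 0.541%). The further risers were Csf2rb2, Col18a1, Notch3 and Scd2, and the further fallers were Pcnt and Ece1. Among the 20 tested genes nearest to a region with a TCF/LEF word, 1 rose (Synpo2) and none fell. Among the 18 tested genes nearest to a region with an AP-1 word, 1 rose (Samd5) and none fell. These counts were made with edgeR and are too small to set against the shares of 1.25% and 0.541% over all genes.

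Genes at 0 in every WT posterior pituitary library stood beside several regions, and those with the largest lower bounds on the fold are described here. The rest ranged from at least 1.03-fold (Cpa4) to at least 34.5-fold (Ociad2), and some, as Cpa4 and Hhipl1, had counts in a single stabilized library. Fndc11 was at 0 in both stabilized libraries instead. The share of all genes at 0 in WT is not given here. Itgax had 0 counts in both WT libraries and 545 and 154 counts in stabilized libraries, or 27.4 and 7.26 CPM, at least 111-fold higher when WT was set to 3 counts per library. Its adjusted p with edgeR was 0.0537, and it was called in 3 of 10 alternative fits, not with DESeq2. Stabilized anterior pituitary also had 15.2 and 12.5 CPM of Itgax, against 0 and 0 in WT anterior pituitary, without a peak at the Itgax promoter there. All 4 cerebellum libraries were at 0.

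Wnt16 had 0 and 0 CPM in WT and 11.2 and 11.5 CPM in stabilized posterior pituitary ECs, at least 71.7-fold higher (adjusted p = 0.153). Stabilized anterior pituitary had 1.57 and 2.0 CPM, and the other 6 libraries of anterior pituitary and cerebellum ECs had none. Kcna6 went from 0 and 0 to 13.2 and 15.1 CPM, at least 89.2-fold higher (adjusted p = 0.0703). Fbln1 went from 0 and 0 to 18.5 and 27.1 CPM, at least 143-fold higher (adjusted p = 0.0504). For all 3 genes the groups did not overlap, the test of edgeR was not passed, and DESeq2 called each of them. Fbln1 was called in 5 of 10 alternative fits and Wnt16 in 1, that with DESeq2.

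The other promoter genes were not called by edgeR in the fit used throughout. Pgf had 0.0312 and 0 CPM in WT and 2.01 and 0.377 CPM in stabilized ECs (adjusted p = 0.478). Mcf2l had 366 and 1234 CPM in WT and 132.5 and 245 CPM in stabilized ECs (adjusted p = 0.0617), and was below WT in both stabilized libraries. It was called by DESeq2, with no filter on low counts, with the replicate block, with library totals, without stabilized replicate 2 and without WT replicate 1. Fam110a had 13.3 and 9.13 CPM against 25.8 and 22.4 CPM (adjusted p = 0.39). Prelp, Ube2g2 and Gemin7 differed by log2 fold changes of 1.16, 0.25 and 0.64, with adjusted p of 0.764, 0.877 and 0.692. Prelp was called without WT replicate 1, where calls rose over all genes. Gm9913 had 0 and 0 counts in WT and 0 and 21 counts in stabilized libraries, and Fhl1 was called in no fit.

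The genes of the strongest regions showed no common direction. Mertk had 72.4 and 97.7 CPM in WT and 54.5 and 57.9 CPM in stabilized ECs (log2 fold change -0.60 ± 0.38, adjusted p = 0.495). Klf13 had 117.5 and 270.4 CPM against 62.0 and 96.2 CPM (adjusted p = 0.111), and Rptor had 54.2 and 72.1 against 31.2 and 30.0 CPM (adjusted p = 0.273). Pros1 had 222 and 269.6 CPM against 309 and 279.8 CPM (adjusted p = 0.693). Prox1 was at 21.1 CPM or less in the 4 libraries, and Gm37419 and Ldlrad1 had no count. Of the genes with paired regions, Smad7 had 88.2 and 100.4 CPM in WT and 39.4 and 44.4 CPM in stabilized ECs (log2 fold change -1.17 ± 0.28, adjusted p = 0.0624), and Npvf, a neuropeptide gene, had none. The astrocyte and pituicyte marker S100b, the remaining list gene nearest to a region, had 3.24 and 0 CPM in WT and 1.71 and 0.0472 CPM in stabilized ECs. Cblb, a ubiquitin ligase, and Mxra7 had adjusted p of 0.689 and 0.301, and Pde9a and Prdm6 were at or below 3.84 CPM in the 4 libraries.

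**Figure D5:**
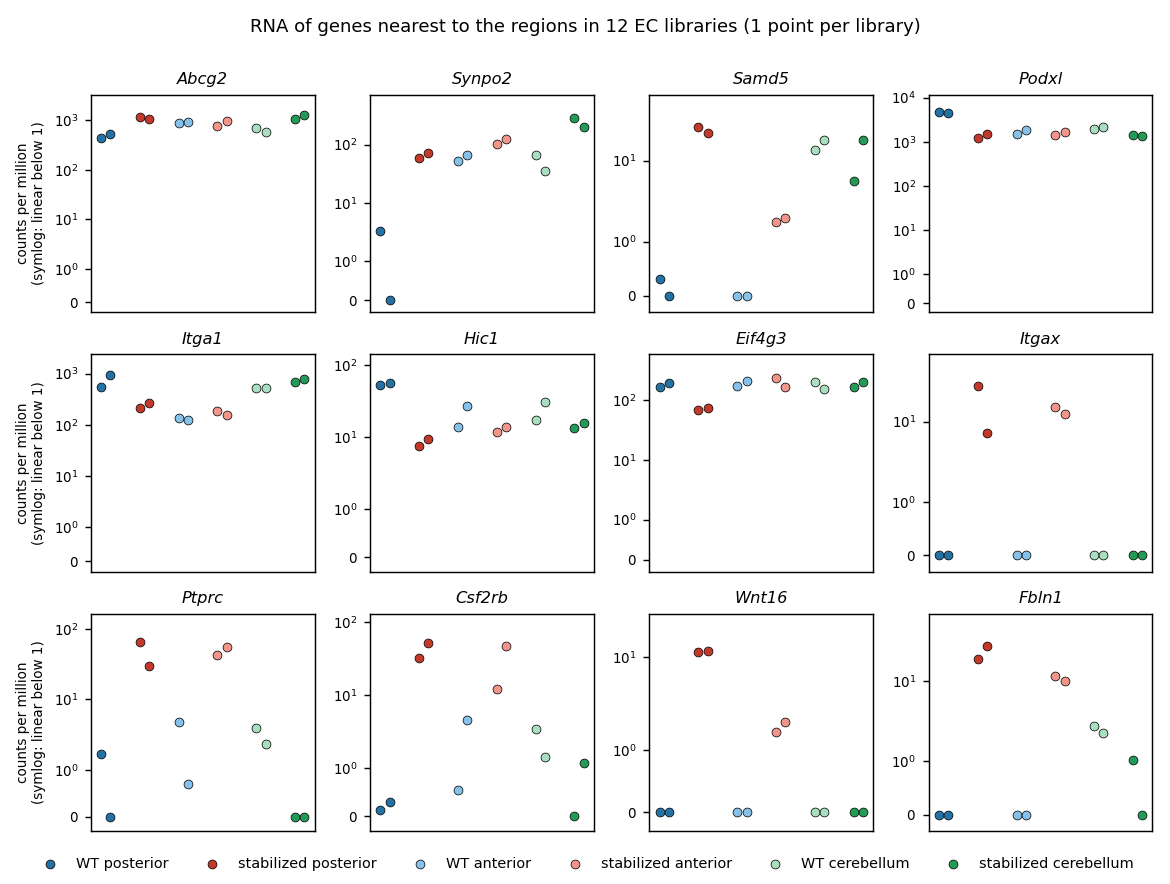
RNA of 12 genes nearest to the regions in the 12 GFP+ EC libraries, 1 point per library, in CPM on a symmetric log axis that is linear below 1. Abcg2, Synpo2 and Samd5 rose and Podxl, Itga1, Hic1 and Eif4g3 fell in stabilized against WT posterior pituitary. Itgax, Wnt16 and Fbln1 are at 0 in both WT posterior pituitary libraries.

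Immune genes were looked at by a set of marker lists and gene families. Of the 150 nearest genes 3 belonged to it, Ptprc (CD45, carried by all leukocytes), Selp (P-selectin, an adhesion molecule of inflamed ECs) and Il4ra (the interleukin 4 receptor), and none was called by edgeR (1.25% of all genes higher and 0.541% lower). At an unadjusted p under 0.05 there was 1 of 3, higher (6.99% of all genes), while DESeq2 called Ptprc. With the gene body within 100 kb there were 8, of which 7 were tested and none called by edgeR (2 higher at an unadjusted p under 0.05). The others were Cd40, Sele, Il21r, Il23a and Il9r. The set does not hold Itgax, Xcl1, Plcg2, Csf2rb or Csf2rb2, so its counts leave these genes out. Of them Csf2rb2, with its body within 100 kb of a region, was called higher by edgeR in stabilized posterior pituitary ECs. It was also called higher in stabilized anterior pituitary ECs. The region at Ptprc lies in an intron 12383 bp from the start, the one near Selp lies 18250 bp upstream and the one at Il4ra lies in a coding exon.

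Ptprc had 1.68 and 0 CPM in WT and 64.9 and 29.8 CPM in stabilized posterior pituitary ECs (log2 fold change 5.75 ± 1.46, adjusted p = 0.0833 with edgeR). It was called in 5 of 10 alternative fits, with adjusted p from 8.52e-08 to 0.217. The groups did not overlap, and stabilized anterior pituitary was as high, with 42.6 and 55.8 CPM against 4.72 and 0.691 CPM in WT. Selp had 2.43 and 1.16 CPM in WT and 9.06 and 11.6 CPM in stabilized posterior pituitary ECs (adjusted p = 0.694). Il4ra overlapped between the groups, at 50.1 and 56.4 CPM in WT and 48.0 and 53.4 CPM in stabilized ECs.

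Further genes of immune cells, chosen after their values were seen, stood beside the regions. Csf2rb, the shared receptor chain for GM-CSF and interleukins, had 0.125 and 0.304 CPM in WT and 32.5 and 51.4 CPM in stabilized posterior pituitary ECs (adjusted p = 0.0582). Plcg2, a phospholipase of immune receptor signaling, had 10.8 and 10.2 against 49.9 and 40.4 CPM (adjusted p = 0.474). Both were higher in both stabilized libraries, and neither passed the test of edgeR. Csf2rb was called in 5 of 10 alternative fits, DESeq2 and the 4 posterior pituitary libraries alone among them, with adjusted p from 8.79e-08 to 0.124. Csf1 overlapped between the groups, at 153 and 45.1 CPM in WT and 65.6 and 100.4 CPM in stabilized ECs, and Xcl1 had no count.

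Markers of other cells moved with these genes. On a list of 20 macrophage markers, 6 of 19 tested genes rose (Csf1r, Ms4a7, Laptm5, Tyrobp, C1qa and C1qb), and the summed level went from 18.1 and 7.61 CPM in WT to 973 and 697 CPM in stabilized posterior pituitary ECs. Cd163 was at 0 in 3 of the 4 libraries and at 0.189 CPM in the other. Lyve1 had 2.62 and 0 CPM in WT and 0 and 0.0472 CPM in stabilized ECs, and F13a1 had 4.02 and 0 against 2.16 and 0.424 CPM, so that these 3 markers did not follow the others. Microglia markers summed to 70.15 and 60.05 against 403 and 247 CPM with 0 of 8 called (Cx3cr1 adjusted p = 0.0535), and 3 of 5 MHC class II genes rose. In stabilized anterior pituitary the macrophage markers summed to 511 and 907 CPM against 139 and 142 CPM in WT. Lymphocyte markers summed to 3.21 and 0 CPM in WT and 13.8 and 11.0 CPM in stabilized posterior pituitary ECs. The part of macrophage, microglia or lymphocyte RNA in the levels of Itgax, Ptprc, Csf2rb and Plcg2, or in the peaks beside them, was not tested.

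EC markers were abundant in both groups. Cdh5, the cadherin of EC junctions, had 2586 and 2975 CPM in WT and 1452 and 1717 CPM in stabilized ECs. On the list of 13 EC markers 2 fell, Pecam1 and Kdr, none rose, and the sum went from 17860 and 20130 to 9140 and 10630 CPM. Among 14 Wnt target genes 6 of 13 tested rose, Axin2 with 2.06 and 1.40 against 78.3 and 108 CPM (adjusted p = 0.0291) among them, and none fell. None of these 14 genes was nearest to a region. Of 21 blood-brain barrier genes 16 rose, and Abcg2 was the one with a region beside it.

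The sorted fractions told in which cells the nearest genes were expressed. In the stabilized posterior pituitary, 23 of 136 tested nearest genes were higher in GFP+ than in GFP- cells (16.9% against 5.49% of all genes) and 7 were lower (5.15% against 5.04%). Higher in GFP+ cells were Pdgfb, Abcg2, Podxl, Itga1, Csf1, Smad7, Irx3 and Chst15 among others, and lower were Kcnip3, Wwc1, Epb41l3, Prox1, Grik3, Cblb and Ndfip1. Itgax had 26.9 and 7.11 CPM in GFP+ against 1.51 and 1.84 CPM in GFP- cells, and Ptprc had 63.5 and 29.1 against 18.9 and 10.1 CPM. Neither gene was called by edgeR, and both were higher in the EC gate than outside it.

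GFP- cells of stabilized and WT posterior pituitary were also compared. Chst15 and Itga1 rose (1.47% of 136 against 0.38% of all genes) and Plec and Eif4g3 fell (1.47% against 0.216%). Itga1 thus rose from 0.0824 and 1.28 CPM to 10.9 and 6.01 CPM in GFP- cells while it fell in ECs. Chst15 in GFP- cells was at 1.92 CPM or less.

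The same genes were then followed in the tissues where the regions had no peak. In anterior pituitary ECs edgeR called none of the 127 genes higher (0.441% of all genes) or lower (0.0167%). At an unadjusted p under 0.05, 15 were higher (5.33% of all genes) and 5 lower (1.66%). DESeq2 called 7 higher (against 3.22% of all genes) and 2 lower (against 0.594%). In cerebellum ECs edgeR called none higher (0.067%), with 4 at an unadjusted p under 0.05 (2.42%) and 0 by DESeq2 (1.06%). Atp8b1 and Synpo were called lower in the cerebellum (0.581%). There 20 were lower at an unadjusted p under 0.05 (7.36% of all genes) and 15 by DESeq2 (12.5% against 5.18%). The responses of the lobes were compared directly by an interaction term, and edgeR called none of the genes (0.0558% of all genes higher and 0.0726% lower). DESeq2 called 4 higher (3.39% against 1.81% of all genes) and 4 lower (3.39% against 2.13%). With no filter on low counts edgeR called 1 higher (0.719% against 0.739%) and 5 lower (3.60% against 0.873%). At an unadjusted p under 0.05 there were 6 higher (3.66% of all genes) and 16 lower (5.43%). The posterior and cerebellum responses differed for Kcna6, Ptprc, Atp8b1 and Synpo, whose log2 change was higher in the posterior pituitary (0.86%), and for Itga1, whose change was lower (0.067%). Atp8b1 and Synpo were below WT in the stabilized libraries of both tissues, and farther below it in the cerebellum.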

How the data were processed

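ATAC-seq peaks were taken from narrowPeak lists that the authors deposited for each of the 12 libraries, with no pooling. Per the study's methods, reads were aligned with Bowtie2 (2.3.2) to mm10, duplicates were removed with Picard, and MACS2 (2.1.1.20160309) was used to call peaks. The deposited columns used were the fold enrichment (a ratio over local background) and the −log10 q. Sub-peaks with the same interval were treated as 1 peak with its strongest summit. RNA-seq values were the expected counts and TPM per transcript that the authors deposited from Salmon (0.10.2) against GRCm38. Expected counts were summed to genes and rounded, and a read shared by near-identical genes is split by Salmon's estimate. Peak lists hold no read depth. TPM were summed to genes but no printed value is TPM, since the rRNA-like gene Gm42418 took 4.76% and 11.0% of counts in WT posterior pituitary ECs and 15.9% and 17.4% in stabilized ones. Ribosome-bound RNA libraries were not used.

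Genes were tested with edgeR (4.0.16) in R (4.3.3) by glmQLFit and glmQLFTest after TMM and filterByExpr. The fit had 1 coefficient per group over the 12 GFP+ libraries, or over all 24 sorted libraries for comparisons with GFP- cells, and Benjamini-Hochberg adjustment over all genes. The thresholds were adjusted p 0.05 and 2-fold, which the study used with EBSeq. All tests were two-sided. Each SE was the absolute log2 fold change divided by the square root of the quasi-likelihood F, and was not estimated directly. Where a group had few or no counts, the log2 fold change and its SE depend on the prior count. The nearest gene was the protein-coding gene with the start closest to the strongest summit (GENCODE, GRCm38). A fold against a group at 0 used a floor of 3 counts per library. Words were searched on both strands within 100 bp of the summit. The procedure was tested on simulated counts for 16130 genes, where it made 5 false calls and 0 with the wrong sign.

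Members, lists and words were chosen with earlier results of these data known. Named genes were those called among the nearest, those nearest to the most regions (9 tied at 2, all given), those of the 10 regions with the largest smaller enrichment, list genes nearest to a region, and genes called in the comparison of lobes. Alternatives were DESeq2 (1.42.0), RLE or library-total scaling, no filter, a replicate block, fewer libraries, other windows and other peak filters.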

Additional observations from a re-analysis of the deposited data

Results flagged for a closer look

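For 5 genes nearest to a region, the response to stabilization in posterior pituitary ECs differed from that in cerebellum ECs by the interaction term of the edgeR fit. The log2 difference was 21.10 for Kcna6 (adjusted p = 0.0331) and 15.14 for Ptprc (adjusted p = 0.0229), in both of which at least 1 group had no counts, so that the size depends on the prior count. Kcna6 had 1.23 and 5.82 CPM in WT cerebellum and 0 and 0 when stabilized, and Ptprc had 3.98 and 2.35 CPM and then 0 and 0. The difference was 9.34 for Atp8b1 (adjusted p = 0.0356), 2.87 for Synpo (adjusted p = 0.0491) and -2.08 for Itga1 (adjusted p = 0.0341). Atp8b1 had 3.78 and 11.0 CPM in WT cerebellum and 0 and 0 when stabilized, so that its size depends on the prior count too, and Synpo had 8.12 and 15.4 CPM and then 1.29 and 0.592 CPM. In posterior pituitary ECs, Atp8b1 had 43.4 and 52.6 CPM in WT and 18.4 and 21.2 CPM when stabilized.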

How the results depend on the processing

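The 159 regions became 61 with fold enrichment over 3 and -log10 q over 5, and 165 to 2673 when 1 of the 12 libraries was left out. A peak filter left off elsewhere, a 500 bp margin and a reciprocal overlap gave 153, 135 and 147. In stabilized against WT posterior pituitary ECs, the 3 nearest genes that rose became 12 with DESeq2, 11 with no filter, 6 with the replicate block, 1 with only the 4 posterior pituitary libraries and 7 with genes whose body lies within 100 kb. Over all genes the 224 calls higher became 940, 588 and 256 in the first 3 of these fits, and the 97 lower became 455, 364 and 125. The 4 that fell became 12 with DESeq2, 10 with no filter and 0 with only the 4 libraries (fewer libraries to estimate the spread). They became 9 with library totals in place of TMM, a choice made after seeing the data that moved the median of all genes to -0.12. Among all genes, the 4 libraries alone gave 97 higher and 13 lower of 14238. Library totals gave 196 higher and 246 lower of 17915. Calls over all genes also moved when 1 posterior pituitary library was left out, and were likewise highest without WT replicate 1. Each of those fits left 1 library in a group, so nothing about the members is read from their counts, given next. Leaving out 1 posterior pituitary library gave 2 to 13 higher and 1 to 10 lower, the highest of both without WT replicate 1, where the median of all genes moved to 0.286. Without stabilized replicate 1 Podxl and Synpo2 were still called, and with the 4 libraries alone none of the 7 genes was (adjusted p 0.121 for Podxl and 0.239 for Synpo2, the highest over all alternatives). The direction held for all 7 genes in each of the 10 RNA alternatives.

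For the difference between the lobes, 0 higher became 4 with DESeq2 and 1 with no filter, and 0 lower became 4 and 5. For posterior pituitary against cerebellum, 4 higher became 11 with DESeq2 and 11 with no filter, and 1 lower became 6 and 3, and 2 with the replicate block (over all genes 6.37% and 2.66% higher, and 2.14%, 0.62% and 0.1% lower). In anterior pituitary ECs 0 higher became 7 with DESeq2 and 8 with no filter, and 0 lower became 2 with DESeq2 (over all genes 3.22% and 1.37% higher, and 0.594% lower). In cerebellum ECs 0 higher became 2 with no filter, and 2 lower became 15 with DESeq2 and 9 with no filter (over all genes 0.45% higher, and 5.18% and 1.8% lower). For GFP+ against GFP- cells, leaving out 1 library gave 4 to 7 lower. In GFP- cells 2 higher became 1 with library totals and 1 to 2 with a library left out, and 2 lower became 0 to 2. The cause of these changes was not tested. Counts under alternatives for GFP- cells have no share over all genes beside them, so nothing about the members is read from them. Replicate numbers did not pair the samples (correlations of deviations between groups from -0.0177 to 0.0295), and under the replicate block all 7 genes were still called. Calls rest on 2 pools per group, and peak lists without depth leave absence of a peak short of absence of accessibility.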
